A study of Homo sapiens with 8 samples.

Results

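The genes described here are 45 regulators of enhancers and chromatin, taken by name from the 57820 genes of an RNA-seq count table of side-population (SP) and non-side population (NSP) cells. They comprise histone H3 lysine 4 methyltransferases, histone demethylases, the EP300 and CREBBP acetyltransferases, Polycomb repressive complex 2 (PRC2), subunits of the BAF remodelling complex, BET bromodomain proteins, Mediator and transcription kinases, CTCF and cohesin, histone deacetylases, and the enzymes that write or oxidise DNA methylation. Each name was matched to a gene identifier of the count table through the annotation, and all 45 were found. The members were listed by function and not by their values, though earlier results of these data were known when the list was made. At least 1 count was present for 44 of them, and 34 had enough counts to be tested, among 9309 tested genes.

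The samples were 4 SP and 4 NSP libraries of J82 cells, a human line established from a bladder cancer and cultured in DMEM with serum. Both groups came from the same line without a drug or a genetic change, and they were separated by FACS after staining with a Hoechst dye: SP cells retain little of the dye, NSP cells are the remainder, and dead cells were gated out. The results hold for 1 cell line. The labels do not say whether the replicates were separate cultures or sorts, so the p-values refer only to the spread between these libraries. The study asked which enhancers open in the drug-resistant SP cells and which factor binds them, and the comparison here asks whether the genes that encode the general enhancer machinery differ in mRNA between the same 2 populations.

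Active enhancers carry monomethylated H3 lysine 4, placed by KMT2C and KMT2D, and acetylated H3 lysine 27, placed by EP300 and CREBBP. Acetylated histones are read by BET proteins, Mediator links enhancer-bound factors to RNA polymerase II, and cohesin and CTCF hold enhancers and promoters in loops. KDM5 and KDM1A demethylases remove methyl groups from H3 lysine 4, PRC2 deposits the repressive methylation of H3 lysine 27 that KDM6A and KDM6B remove, and BAF moves nucleosomes. Several of these genes, among them KDM6A, KMT2D and ARID1A, are often mutated in bladder cancer, and KDM5 enzymes are known from studies of drug-tolerant tumour cells.

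None of the 34 tested regulators was called different between the populations. A call needed a change over 1.3-fold and, in the quasi-likelihood fit of edgeR, a p under 0.05 once adjusted over the 9309 genes by Benjamini-Hochberg, and 3.66% of all tested genes were called, 1.63% higher and 2.03% lower in SP. DESeq2 called 0 of the members and 3.32% of the 12049 genes it tested. At an unadjusted p under 0.05 (edgeR) there were 2 members higher and 0 lower in SP, or 5.88%, where 16.4% of all tested genes passed, 8.13% higher and 8.27% lower. The 2 were KDM5B and KDM5A. When same-numbered SP and NSP libraries were treated as pairs (a replicate block) both were called higher, again 5.88% of the members, where 12.9% of all tested genes were called in either direction and 5.89% were called higher. Library by library, SP and NSP overlapped in CPM for every tested member, so 0 of 34 had separate groups, where 9.75% of all tested genes did (4.78% with SP higher, 4.97% with SP lower). CPM is the count scaled to a common library size after TMM normalization.

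The log2 fold changes of SP over NSP ran from -0.38 for KMT2D to 1.04 for KDM5B, with a median of 0.05 over the 34 genes and 0.015 over all tested genes. They were positive for 19 and negative for 15, and 30 of them lay within 0.3 of 0. The median size of the log2 fold change, without its sign, was 0.133 for the members and 0.233 for all tested genes. The size of a difference that could be seen was limited, since the 95% interval reached a median of 0.49 to either side of the estimate, from 0.30 for SMARCA4, the best counted gene, to 0.92 for SETD1B. The interval lay inside a 2-fold change in both directions for 31 of the 34 genes, but inside a 1.3-fold change for only 1 of them (BRD3). KDM5A, KDM5B and CDK8 were the 3 genes whose interval passed a 2-fold increase, and no member's interval reached a 2-fold decrease. The width did not follow the counts alone: ARID1A, with 657 counts, had an interval of -0.75 to 0.73, and TET3, with 105, one of -0.60 to 0.69. An interval that includes 0 does not show equal levels.

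**Figure D1:**
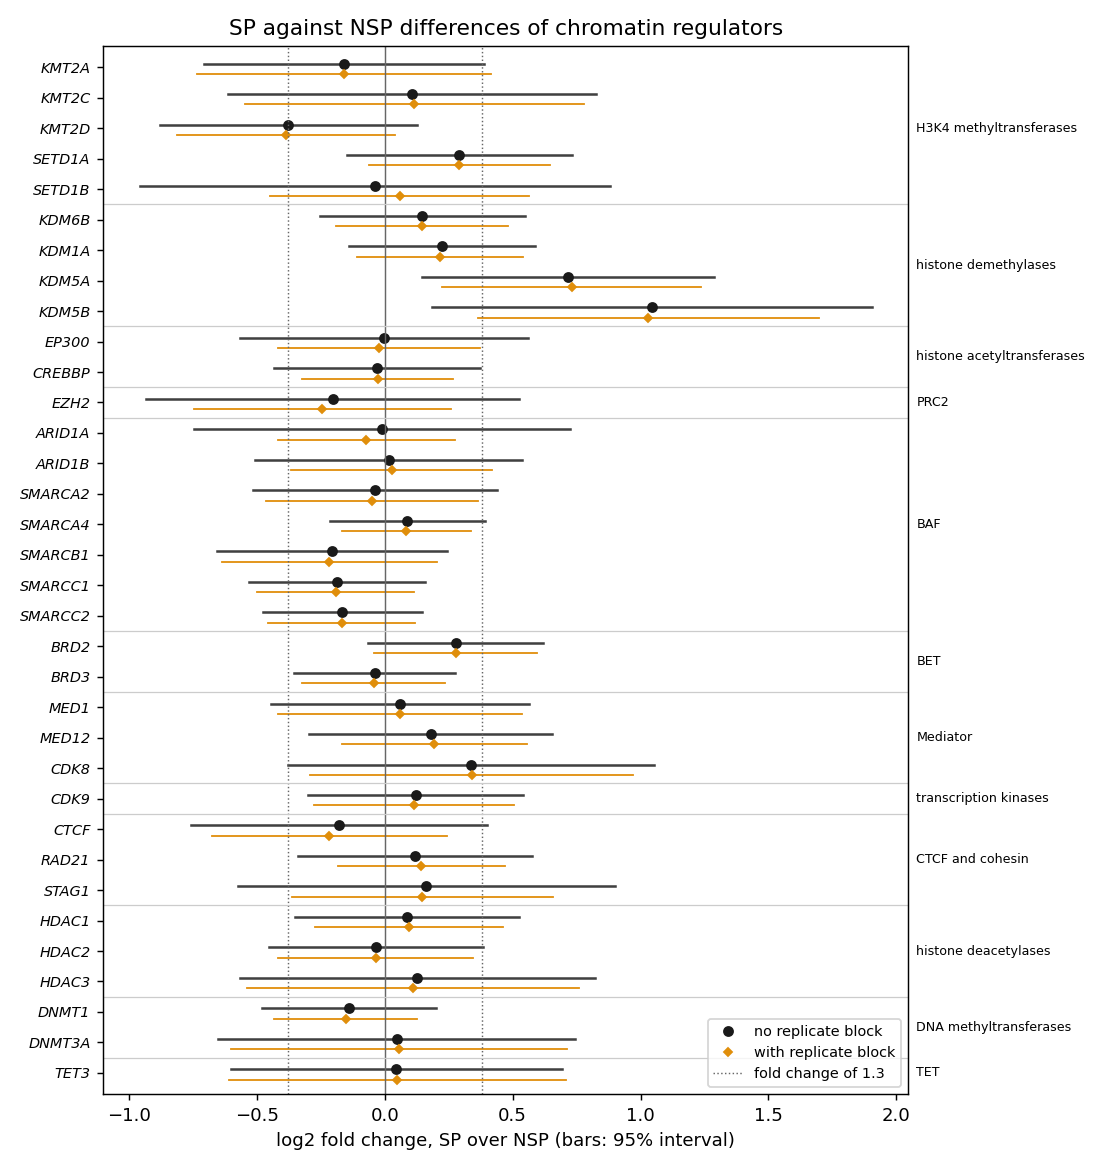
The log2 fold change of SP over NSP (horizontal axis) is plotted for the 34 tested regulators, ordered by role, with bars for the 95% interval; black circles are the fit without the replicate block, orange diamonds the fit with it, and dotted lines mark a fold change of 1.3. The intervals of 32 genes without the block include 0, and those of KDM5A and KDM5B lie above it.

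The library totals were 1431823 to 1697218 counts in SP cells and 1489033 to 2073526 in NSP cells, and the members took 0.169% of all counts. The tested members had a median of 404.5 counts summed over the 8 libraries, from 105 (KMT2C and TET3) to 5757 (SMARCA4), beside a median of 332 for all tested genes. As a check of the cell type, the keratin genes KRT8 (3660 CPM), KRT18 and KRT7 were well counted, but of the 13 epithelial and urothelial markers listed only 5 had enough counts to be tested. EPCAM, CDH1, GATA3 and KRT5 had 3, 24, 34 and 1 counts over the 8 libraries, and of the uroplakins UPK2 had 253 and UPK3A had 0, as had TP63. All 4 mesenchymal markers were tested, with VIM the highest (424 CPM). The markers also moved with the groups: KRT7 and FN1 were called lower in SP (log2 fold changes -1.35 and -1.25, edgeR adjusted p = 0.00342 and 0.000863), and VIM, at -0.76, was not called in that fit (adjusted p = 0.0784) but was called lower with the replicate block and by DESeq2. Of the 4 blood genes PTPRC and HBB had 0 counts and CD68 had 107. CD14 had 629 counts, at 67 ± 22.7 CPM in SP against 34.2 ± 17.2 CPM in NSP (SD, n = 4 each), and was called higher with the block (edgeR adjusted p = 2.77e-06) but not without it (0.135). Of the endothelial genes CDH5 and VWF each had 1 count. The part of these markers in the values of the regulators was not tested. In bulk RNA, fewer cells of a kind and less RNA per cell cannot be told apart, and this holds for every level given here.

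KDM5A (ENSG00000073614) and KDM5B (ENSG00000117139) encode lysine 4 demethylases of histone H3 with the same domain plan, and they had the largest positive differences of the list. KDM5A spans chr12:389223-498486 and KDM5B chr1:202693623-202777615 in GRCh37, both on the minus strand. Because they are the only members called under any of the fits run, the 250 bases before their annotated starts are shown, read 5′ to 3′ on the gene's strand from RefSeq on GRCh38.p14 (chr12:389321-389570 for KDM5A and chr1:202808422-202808671 for KDM5B). Capitals mark the GC box, GGGCGG or CCGCCC.
KDM5A: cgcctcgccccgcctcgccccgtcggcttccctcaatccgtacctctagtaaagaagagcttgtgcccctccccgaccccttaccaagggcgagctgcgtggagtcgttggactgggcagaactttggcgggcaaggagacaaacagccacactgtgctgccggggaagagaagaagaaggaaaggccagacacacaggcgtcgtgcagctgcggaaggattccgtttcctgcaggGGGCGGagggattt
KDM5B: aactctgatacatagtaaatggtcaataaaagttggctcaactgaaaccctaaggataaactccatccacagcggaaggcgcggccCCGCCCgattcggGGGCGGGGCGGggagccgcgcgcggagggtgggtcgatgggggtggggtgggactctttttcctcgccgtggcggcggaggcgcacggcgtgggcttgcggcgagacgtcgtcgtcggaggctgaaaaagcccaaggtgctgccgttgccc

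The GC box stands 1 time in the KDM5A window, with its first base 14 bases before the start, and 3 times in the KDM5B window, where 2 of the boxes share 1 base. In the table of RefSeq starts, 39 of the 45 regulators were matched, with 60 starts. A GC box on either strand was present before 65% of these starts and before 42.6% of all 35116 starts in the table. The letters CCAAT (or ATTGG) were present before 21.7% and 32% of them. The forkhead core GTAAACA (or TGTTTAC), searched because the study follows the forkhead factor FOXC1, was in 0 of the 60 windows and in 2.98% of all. A missing match says only that these letters are not in the 250 bases, and FOXC1 binding was not analysed here. The windows of the regulators were rich in C and G, with a median of 68.8% against 58% for all starts, and the CpG content was above 0.6 of that given by base composition at 80% of the starts against 47.5%.

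KDM5A had 23.1, 24.1, 17.3 and 12.5 CPM in SP replicates 1 to 4 and 12.8, 11.9, 8.93 and 13.1 CPM in NSP replicates 1 to 4. Replicates 1, 2 and 3 of SP lay above all NSP libraries, and SP replicate 4 lay within them. The mean was 19.3 ± 5.40 CPM in SP against 11.7 ± 1.91 CPM in NSP (SD, n = 4 each). The log2 fold change was 0.72 (standard error 0.27, 95% interval 0.15 to 1.29, adjusted p = 0.181, edgeR), and permuting the group labels on log2(CPM + 1), an exact two-sided test, gave p = 0.0857, where 4 libraries against 4 allow 0.0286 at the least. With the replicate block the log2 fold change was 0.73 (adjusted p = 0.0423, edgeR), and SP was above NSP in 3 of 4 same-numbered pairs. The block's call was lost without the pair of replicate 1 (0.68, adjusted p = 0.173), without that of replicate 2 (0.61, adjusted p = 0.249) and without that of replicate 3 (0.67, adjusted p = 0.101, all edgeR), and it held without replicate 4 (0.93, adjusted p = 0.0237, edgeR).

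KDM5B had fewer counts than KDM5A, 116 against 198 over the 8 libraries. Its SP libraries had 19.5, 14.1, 11.9 and 3.68 CPM and its NSP libraries 3.72, 7.41, 6.38 and 6.22 CPM, which rest on 5 to 27 counts in a library of SP and 7 to 15 in one of NSP. SP replicates 1, 2 and 3 again lay above all NSP libraries, and SP replicate 4 was the lowest of the 8. The log2 fold change was 1.04 (standard error 0.40, 95% interval 0.19 to 1.90, adjusted p = 0.2, edgeR, exact permutation p = 0.2), or 1.03 with the block (adjusted p = 0.0258, edgeR). Without SP replicate 4 it was 1.32 and was called without a block (adjusted p = 0.049, edgeR). With the block it stayed called without replicate 3 (1.09, adjusted p = 0.0461) and without replicate 4 (1.35, adjusted p = 0.00654), but not without replicate 1, where it was 0.56 (adjusted p = 0.469, all edgeR), and without replicate 2 it had too few counts for the test. In both KDM5 genes SP replicate 4 was the library that did not follow the other SP libraries. The same-numbered pairs 1 to 4 of KDM5B had log2 ratios of SP over NSP of 2.11, 0.84, 0.81 and -0.63, taken on CPM + 1. The block's p-values of both genes rest partly on the spread of all genes and do not measure that of these pairs alone.

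**Figure D2:**
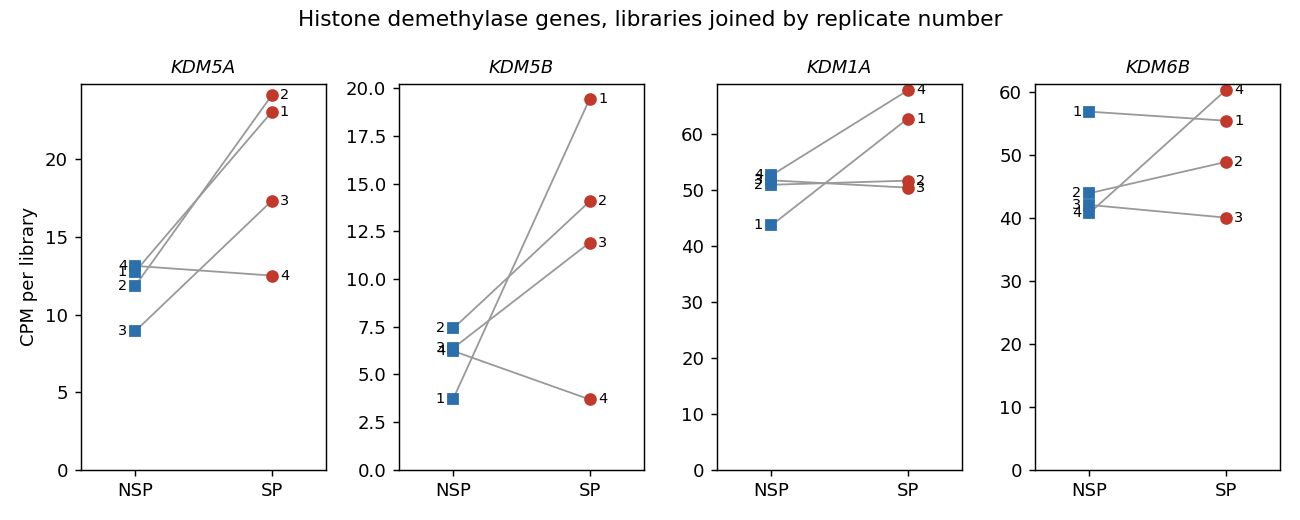
CPM per library (vertical axes, each from 0) of 4 histone demethylase genes, with NSP libraries as blue squares and SP libraries as red circles, numbered and joined by replicate number. KDM5A and KDM5B are higher in SP in the pairs 1, 2 and 3 and not in pair 4; KDM1A is lower in SP in pair 3, and KDM6B in pairs 1 and 3.

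The other demethylases of the list had smaller differences. KDM1A, which removes mono- and dimethylation of H3 lysine 4, had 58.1 ± 8.48 CPM in SP against 49.7 ± 4.09 CPM in NSP (SD, n = 4 each; log2 fold change 0.22, 95% interval -0.14 to 0.59). KDM6B, a lysine 27 demethylase, had 51.2 ± 8.78 and 45.9 ± 7.43 CPM (SD, n = 4 each; log2 fold change 0.15, 95% interval -0.25 to 0.55). KDM6A, on the X chromosome and also a lysine 27 demethylase, was not tested, at 1 to 7 counts per library of SP and 0 to 3 of NSP. The 4 tested demethylases all had positive log2 fold changes, with a median of 0.47, and 2 of them are the KDM5 genes. Of the demethylases outside the list 9 were tested, 5 positive and 4 negative, with a median of 0.04. They include KDM5C, a further KDM5 gene with 842 counts, at 0.04 (adjusted p = 0.952, edgeR). KDM2A, also among them, was at 0.67 (adjusted p = 0.0768, edgeR) and was called higher with the block (adjusted p = 0.00459, edgeR). A positive difference was thus not particular to the listed demethylases.

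Among the lysine 4 methyltransferases, 5 of 6 were tested, 2 with positive and 3 with negative log2 fold changes. KMT2D, which primes enhancers, had 20.2, 25.5, 24.9 and 14.7 CPM in SP replicates 1 to 4 and 22.9, 27.2, 37 and 24.9 CPM in NSP replicates 1 to 4. SP was below NSP in every same-numbered pair while the groups overlapped, and the log2 fold change of -0.38 was the lowest of the list (standard error 0.24, 95% interval -0.88 to 0.12, adjusted p = 0.467 and 0.261 with the block, edgeR). KMT2C, its close paralog, had 8.63 ± 2.31 CPM in SP against 7.97 ± 2.43 CPM in NSP (SD, n = 4 each; log2 fold change 0.11). KMT2A, the founding member of the family, had 10.4 ± 1.03 and 11.7 ± 1.53 CPM (SD, n = 4 each; log2 fold change -0.16).

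SETD1A, which places most promoter trimethylation together with SETD1B, had 45.8 ± 9.61 CPM in SP against 37.6 ± 7.24 CPM in NSP (SD, n = 4 each; log2 fold change 0.29, 95% interval -0.15 to 0.73). SETD1B had 27.4, 10.7, 17.3 and 10.3 CPM in the SP libraries and 35.6, 11.4, 7.02 and 12.4 CPM in the NSP libraries. Replicate 1 was the highest in both groups, and the log2 fold change of -0.04 became 0.66 without NSP replicate 1 and -0.37 without SP replicate 1, neither called. KMT2B was listed at 0 in every library. Its exons may be shared with another gene model of the annotation that the authors counted on, so the 0 is not read as absence of its mRNA.

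The acetyltransferases that mark active enhancers showed no difference beyond the spread. CREBBP had 91.3 ± 17.1 CPM in SP against 93.6 ± 20.3 CPM in NSP (SD, n = 4 each; log2 fold change -0.03, 95% interval -0.43 to 0.37). EP300 had 28.8, 34.9, 42.8 and 17.7 CPM in the SP libraries and 21.8, 32.6, 42.1 and 29.7 CPM in the NSP libraries (log2 fold change -0.00, 95% interval -0.57 to 0.56). Replicate 3 was the highest library of both genes in both groups, and the range within a group was wider than the distance between the group means.

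BAF subunits were the best counted part of the list. SMARCA4, the BRG1 ATPase of BAF, had 424, 444, 536 and 421 CPM in SP replicates 1 to 4 and 418, 384, 469 and 447 CPM in NSP replicates 1 to 4. It held 25.7% of all the members' counts, and per kb of annotated exon it was also the highest of the tested members, at 28.4 CPM per kb, ahead of BRD3 at 16.7 CPM per kb and SMARCC2 at 10.5 CPM per kb. Its log2 fold change was 0.09 (standard error 0.14, 95% interval -0.22 to 0.39, adjusted p = 0.826, edgeR). SMARCA2, the alternative ATPase, had 26.2 ± 7.41 and 27.1 ± 2.03 CPM (SD, n = 4 each; log2 fold change -0.04), and 1.4 CPM per kb.

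The core scaffold subunits SMARCC1 and SMARCC2 were a little lower in the SP mean, with 64.3 ± 9.11 against 73.3 ± 6.21 CPM and 91 ± 7.57 against 102 ± 6.93 CPM (SD, n = 4 each). Their log2 fold changes were -0.19 and -0.17, and neither passed the test. SMARCB1 was at -0.21. ARID1A, the largest DNA-binding subunit and the one most often mutated, had 34.6, 52.9, 86.6 and 21.3 CPM in the SP libraries and 30.3, 48.4, 78.4 and 43.6 CPM in the NSP libraries. Replicate 3 was the highest in both groups, the highest SP library was 4.06 times the lowest, and the log2 fold change was -0.01 (95% interval -0.75 to 0.73). ARID1B had 31.3 ± 7.04 and 31.0 ± 9.61 CPM (SD, n = 4 each; log2 fold change 0.02). ARID2, of the PBAF form, had 1 to 4 counts per library and was not tested.

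**Figure D3:**
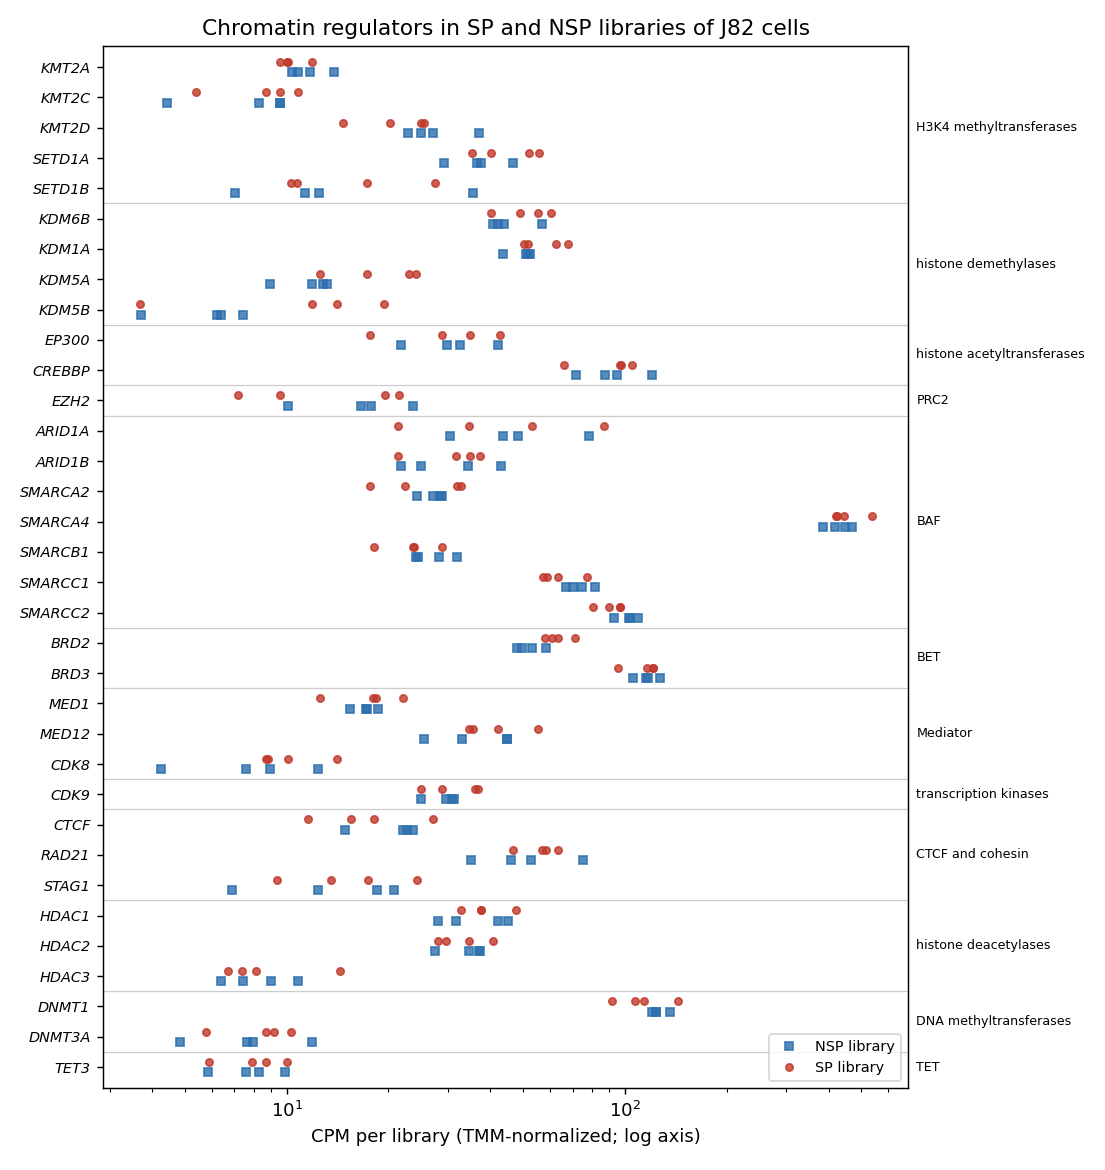
CPM per library on a log axis for the 34 tested regulators, ordered by role; red circles are SP libraries and blue squares NSP libraries. The circles and squares of every gene overlap, SMARCA4 lies highest, and KDM5A and KDM5B each have 3 SP circles to the right of all NSP squares.

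PRC2, which places the repressive mark on lysine 27, was represented by EZH2 alone among the tested genes. EZH2, its main catalytic subunit, had 7.21, 21.4, 19.5 and 9.57 CPM in the SP libraries and 10.1, 17.8, 23.6 and 16.6 CPM in the NSP libraries (log2 fold change -0.20, 95% interval -0.93 to 0.53, adjusted p = 0.831, edgeR). SP replicates 1 and 4 lay below all NSP libraries, and SP replicates 2 and 3 lay among them. EZH2 and DNMT1 are known to follow the cell cycle, and the summed CPM of 11 genes of G2 and mitosis was 225, 316, 677 and 227 in SP replicates 1 to 4 and 393, 506, 725 and 512 in NSP replicates 1 to 4. Of the 10 tested genes of that list 1 was called lower (TOP2A), with a median log2 fold change of -0.42, and with the block 6 were (TOP2A, MKI67, AURKB, PLK1, CENPF and TPX2). Of 11 tested S phase genes 1 was called lower (TYMS), with a median of -0.18, and with the block 2 were (TYMS and MCM2). Their part in the values of EZH2 and DNMT1 was not tested. The core subunits SUZ12 and EED had 67 and 60 counts over the 8 libraries, the alternative catalytic subunit EZH1 had 26, and none of them was tested.

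DNMT1, the maintenance methyltransferase of DNA, had 114, 107, 143 and 91.3 CPM in the SP libraries and 136, 123, 124 and 120 CPM in the NSP libraries. The SP libraries spread on both sides of the NSP libraries, and the log2 fold change was -0.14 (95% interval -0.48 to 0.20, adjusted p = 0.731, edgeR). DNMT3A, a de novo methyltransferase, had 8.5 ± 1.94 and 8.08 ± 2.88 CPM (SD, n = 4 each; log2 fold change 0.05). TET3, which oxidises methylcytosine, had 8.13 ± 1.74 and 7.91 ± 1.67 CPM (SD, n = 4 each; log2 fold change 0.05). DNMT3B, TET1 and TET2 were not tested, with 62, 3 and 77 counts over the 8 libraries.

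BRD2 and BRD3 are BET readers of acetylated histones. BRD2 had 63.4, 61.0, 57.9 and 71.4 CPM in SP replicates 1 to 4 and 49.5, 58.3, 47.8 and 53.2 CPM in NSP replicates 1 to 4. Only SP replicate 3 fell below an NSP library, by under 1 CPM, and SP was above NSP in every same-numbered pair. The log2 fold change was 0.28 (standard error 0.16, 95% interval -0.06 to 0.62, adjusted p = 0.425, edgeR; exact permutation p = 0.0571), and with the block it was 0.28 (adjusted p = 0.285, edgeR). BRD3 had 113 ± 12.2 and 116 ± 8.77 CPM (SD, n = 4 each; log2 fold change -0.04).

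The 3 tested genes of Mediator and its kinase module had positive log2 fold changes of 0.06 (MED1), 0.18 (MED12) and 0.34 (CDK8), none called. CDK8, the kinase of the module, had 8.71 to 14.1 CPM in SP cells and 4.26 to 12.3 CPM in NSP cells, and its interval ran from -0.38 to 1.05. MED13, which ties the module to the core complex, had 2 to 9 counts per library and was not tested. CDK9, the kinase that releases paused polymerase, had 31.7 ± 5.71 and 29.2 ± 2.93 CPM (SD, n = 4 each; log2 fold change 0.12), and CDK7, the TFIIH kinase, was not tested with 25 counts in all.

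CTCF, the insulator protein, had 11.5, 18.1, 27.1 and 15.5 CPM in the SP libraries and 14.9, 22.7, 23.6 and 22.1 CPM in the NSP libraries (log2 fold change -0.18, 95% interval -0.76 to 0.40). The cohesin subunits RAD21 and STAG1 were at 0.12 and 0.16. STAG1 had 9.37 to 24.3 CPM in SP cells and 6.92 to 20.7 CPM in NSP cells, and replicate 1 was the lowest and replicate 4 the highest in both groups, as for RAD21. The deacetylases HDAC1, HDAC2 and HDAC3 had log2 fold changes of 0.09, -0.03 and 0.13, with HDAC1 at 38.9 ± 6.25 and 36.8 ± 8.23 CPM (SD, n = 4 each).

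Within a group many members shared the same extreme library, apart from the highest NSP library. Among the SP libraries, replicate 4 was the lowest for 19 of the 34 tested members (55.9%), where it was the lowest for 25.4% of all tested genes, and replicate 3 was the highest for 15 of them (44.1%, against 26% of all tested genes). Among the NSP libraries, replicate 1 was the lowest for 16 (47.1%, against 27.5%). The highest NSP library was spread over the replicates much as for all genes. Each replicate was the highest for 17.6% to 29.4% of the members, against 19.7% to 28.0% of all tested genes. Summed over all 45 genes, the SP libraries had 1682, 1716, 1978 and 1560 CPM and the NSP libraries 1633, 1630, 1794 and 1735 CPM, so the SP libraries held both the lowest and the highest sum. Replicate 3 had the highest sum in both groups, as it had for the genes of G2 and mitosis, and whether the 2 are linked was not tested. The interval of ARID1A was -0.75 to 0.73 without the replicate block and -0.42 to 0.27 with it. Its same-numbered pairs 1 to 4 had log2 ratios of SP over NSP of 0.18, 0.13, 0.14 and -0.996, taken on CPM + 1. The interval with the block rests partly on the spread of all genes, so its width does not measure how well these pairs match.

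The members are long genes, with a median of 11692 bp of annotated exon against 4627.5 bp for all tested genes. In 19 of the 45, and 18 of the 34 tested (52.9%), an exon was crossed by an exon of an opposite-strand gene, close to the share among all tested genes (55.2%). Whether reads were counted by strand is not given in the sources used here, and the counts of such genes cannot be assigned to one strand with certainty. The strand setting would bear on the levels of members without such a crossing too, and its part in them was not tested. Of the 21 genes that cross a member in this way, 9 had more counts than the member and enough for a test, and they cross 8 members. MYL6, which encodes a myosin light chain and overlaps 719 bp of SMARCC2 exons, had 9371 counts against 1261 for SMARCC2. PCCB, a mitochondrial carboxylase subunit, had 2750 counts against 194 for STAG1 (14.2 times as many), and the lncRNA ENSG00000266469 had 2373 against 227 for MED1. BRD3OS had 4004 against 1490 for BRD3, and the lncRNA ENSG00000263756 had 3868 against 746 for BRD2.

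None of the 12 tested genes on the other strand was called, with or without the block (edgeR), and their log2 fold changes ran from -0.32 to 0.03. As an alternative, all counts of the crossing genes were added to those of the member, also counts from outside the overlap. Such a sum moves toward the better counted gene and cannot show which gene the reads of the overlap belong to. The lncRNA across BRD2 was at 0.02, and the sum of BRD2 and the genes across it had a log2 fold change of 0.06, beside 0.28 for BRD2 alone. For STAG1 the sum with PCCB, which holds most of the counts, was at -0.29 (adjusted p = 0.497, edgeR), beside 0.16 for STAG1 alone. For KDM5A the sum with CCDC77, which had 130 counts and overlaps it by 48 bp, was at 0.39 (adjusted p = 0.426, edgeR). KDM5B, KDM1A, KDM6B, SMARCA4, CREBBP and DNMT1 have no annotated exon of the other strand across their exons, which does not settle how their reads were counted. With both strands summed in this way for each member, 0 were called, which says nothing on the strand of the reads.

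**Figure D4:**
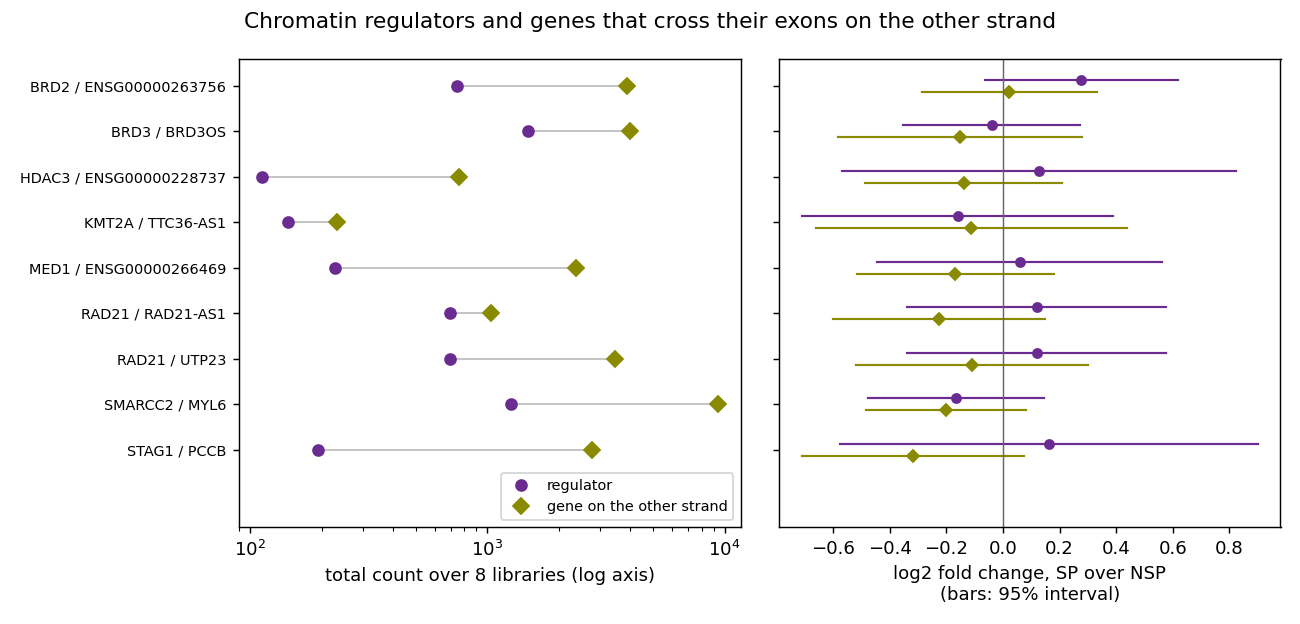
Left, total counts over the 8 libraries (log axis) of 8 regulators (purple circles) and of the 9 genes with more counts that cross their exons on the other strand (olive diamonds). Right, the log2 fold change of SP over NSP of the same genes with 95% intervals; the intervals of all of them include 0.

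Beyond the 45, a list of 167 other genes of the same complexes and processes was examined, of which 121 were tested. Their median log2 fold change was 0.05, with 68 positive and 53 negative, and 1 was called higher and 0 lower (edgeR), beside 3.66% of all tested genes. With the block 6 were called higher (4.96%, where 5.89% of all tested genes were) and 6 lower (4.96%, where 7% were).

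The gene called in both fits was MED12L, a paralog of the Mediator kinase module subunit MED12. It had 14.4, 24.8, 19 and 25 CPM in the SP libraries and 7.98, 9.38, 10.8 and 9.68 CPM in the NSP libraries, with all 4 SP values over all 4 NSP values. The log2 fold change of MED12L came to 1.13 (standard error 0.26; edgeR adjusted p = 0.0251), or 1.12 with the block (adjusted p = 0.000849). Without a block the call was lost without SP replicate 2 (adjusted p = 0.0816), SP replicate 4 (0.0722), NSP replicate 1 (0.0744) and NSP replicate 2 (0.0801, all edgeR), with log2 fold changes of 1.03 to 1.13. The exons of MED12L are crossed on the other strand. Counts of both strands were summed for the members only, so that check did not cover MED12L. MED12 itself was at 0.18.

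The other genes called higher with the block were KDM2A (log2 fold change 0.67 in that fit), an H3 lysine 36 demethylase, BRD9 (0.67), a subunit of the non-canonical BAF complex, HEXIM1 (0.60), an inhibitor of the CDK9 complex, and MBD1 (0.91) and MBD2 (0.57), which bind methylated DNA. Those called lower with the block were the PRC1 subunits CBX2 (-0.66) and PHC1 (-0.49), the PRC2 cofactor AEBP2 (-0.76), the PBAF subunit PBRM1 (-0.64), and CCNH (-0.62) and CCNK (-0.55), the cyclins of CDK7 and of CDK12 and CDK13. PHC1 was the best counted of them, with 269 ± 48.9 CPM in SP against 374 ± 26.5 CPM in NSP (SD, n = 4 each). Its groups did not overlap, nor did those of KDM2A and BRD9, and exons of PHC1 are crossed on the other strand. Among the 121 tested genes the groups were apart for 8 with SP higher (6.61%, where 4.78% of all tested genes were). They were apart for 4 with SP lower (3.31%, where 4.97% of all tested genes were). Without the block the adjusted p-values of the genes called only with it were 0.0677 (MBD1) to 0.373 (AEBP2) in edgeR's test, and none was called. BRD7, a PBAF subunit with the third smallest p of those below 0, was not called in either fit (log2 fold change -0.39), though its groups did not overlap.

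**Figure D5:**
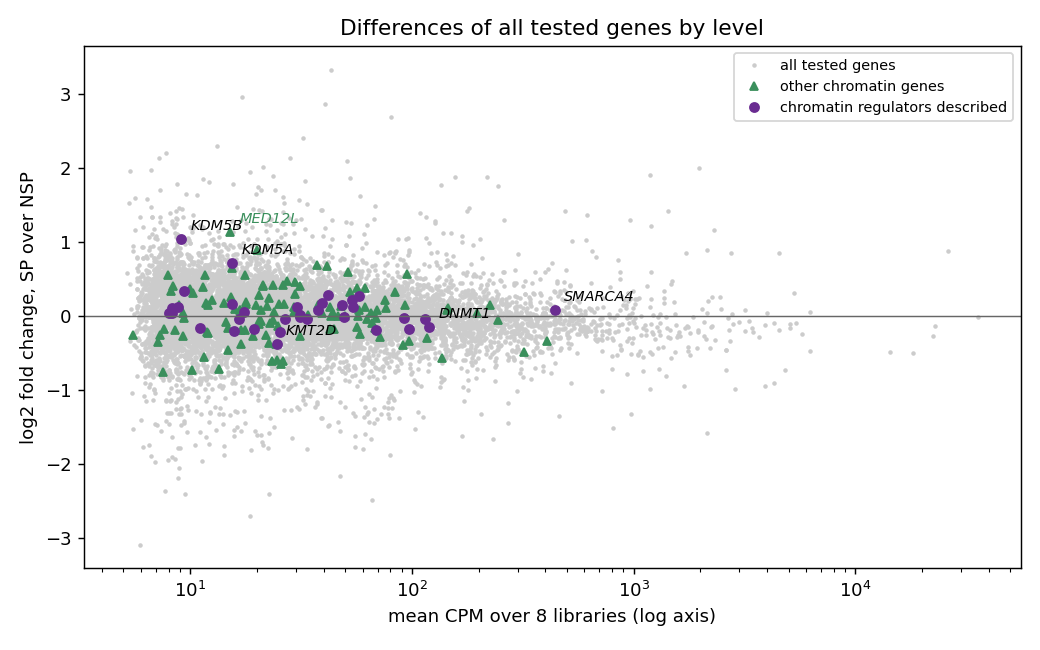
Log2 fold change of SP over NSP against the mean CPM over the 8 libraries (log axis) for all 9309 tested genes (grey), the 34 tested regulators (purple circles) and the 121 tested other chromatin genes (green triangles). The regulators lie near 0 at all levels, with KDM5A and KDM5B above the rest of the list, and MED12L is the only chromatin gene called without the block.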

How the data were processed

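Raw counts of 57820 genes in 8 libraries were deposited by the authors, made from 50-bp single-end reads by STAR alignment to hg19 and featureCounts on gencode version 19; the strand setting is not given in the sources used here. Totals were 1431823 to 2073526 counts per library, far below the number of raw reads per sample that the paper states. The reason for this gap was not tested. The intervals refer to the spread between libraries. Libraries were assigned by their column names. Names, positions and exon overlaps came from the GENCODE annotation on GRCh37, the build hg19 corresponds to, joined by unversioned identifier; 3 other chromatin names (PAGR1, PCGF2, UHRF1) were not matched. Promoter letters came from RefSeq on GRCh38.p14.

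The tests used edgeR 4.0.16 under R 4.3.3: filterByExpr (minimum count 10, minimum total 15), TMM, then glmQLFit and glmQLFTest with no covariate, with Benjamini-Hochberg adjustment over 9309 genes. Calls needed an adjusted p under 0.05 and a fold change over 1.3, the cutoffs of the study. A standard error is the log2 fold change divided by the square root of F, and the 95% interval uses the t quantile of the fit. The fits estimate the spread of a gene partly from all genes together. With the replicate block this shared part weighs more, so the block's p-values do not measure the spread of a gene's own pairs alone. Permutation tests used log2(CPM + 1). The fits were tested on simulated data.

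The members and lists were chosen with earlier results of these data known. Of other genes, those called in either fit, the 3 smallest p-values in each direction and the genes of the other strand with at least the member's counts are named, and of the check lists the genes called in either fit and the highest of each list. CCDC77, KDM5C, KRT18, KRT5, EPCAM, CDH1, GATA3, UPK2, UPK3A, TP63, PTPRC, HBB, CD68 and VWF were named after their values were seen. Deviations of same-numbered SP and NSP libraries correlated at 0.38, 0.203, 0.322 and 0.321, all over 0.1, and the replicate numbers were therefore treated as pairs, a pairing seen in the data and not stated in the labels. Replicates differed by more than sampling noise (chi-square per degree of freedom 5.61 to 13.5). Alternatives were DESeq2 1.42.0 and its size factors, no filter, 10 counts in every library, the replicate block, both strands summed, leaving out each library, and, chosen after seeing the data, the block without each pair.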

Additional observations from a re-analysis of the deposited data

Results flagged for a closer look

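For 2 of the 112 sets of 4 values examined, the most extreme value stood well away from the rest; by chance about 1 set in 20 would. The distance to the nearest value, divided by the range, was 0.831 for CTCF in NSP cells, where replicate 1 was the lowest, and 0.877 for BRD7 in NSP cells, where replicate 3 was the highest.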

How the results depend on the processing

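Of the 34 tested members, 32 were called under none of the 18 alternatives; the exceptions were KDM5A and KDM5B. The sign of the log2 fold change turned under at least 1 alternative for 17 members, none called and all within 0.203 of 0. The members' median stayed between -0.02 and 0.11. Leaving out single libraries gave 0 to 1 members higher, 0 lower, 69 to 164 of all genes higher and 89 to 181 lower, and 0 to 2 other chromatin genes higher and 0 to 1 lower; the fewest of all genes came without NSP replicate 2. Causes were not tested.

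The replicate block, with the libraries paired by number, called 2 members higher, 548 of all genes higher and 652 lower, and 6 other chromatin genes in each direction. With the block and without the pairs of replicates 1, 2, 3 and 4 in turn, 0, 0, 1 and 2 members were called higher, 343, 358, 595 and 369 of all genes higher and 469, 426, 628 and 484 lower, and 4, 5, 9 and 4 other chromatin genes higher and 4, 1, 6 and 2 lower. Without a filter, 303 of all genes were higher and 381 lower, with 2 other chromatin genes in each direction; DESeq2 called 1 lower (DPF3, a BAF subunit with too few counts for the edgeR test, named after its value was seen). Low counts limit the 11 members that were not tested.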
